A study of Mus musculus with 5 samples.

Results

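The 10 genes described here are those by which resident macrophages of the mouse liver, the Kupffer cells, are usually told from other macrophages: Clec4f, Timd4, Cd163, Cd5l, Vsig4, Marco, Nr1h3, Id3, Spic and Folr2. They were found by symbol among the 32285 genes of the deposited matrices, and all 10 were present. Their unique molecular identifiers (UMIs, counted RNA molecules) were summed per library over macrophage nuclei, which were nuclei with at least 300 genes, no UMI of Hnf4a, Ptprb, Pkhd1 or Col3a1 (genes of hepatocytes, endothelial cells, cholangiocytes and stellate cells) and UMIs of at least 2 of 6 macrophage and leukocyte genes (Cd84, Ms4a7, Cyth4, Lair1, Ptprc and Fyb). The rule held none of the 10 genes. It selected 2883 of 56718 nuclei. The comparison asked which Kupffer cell genes were lost and which were kept in metabolic dysfunction-associated steatohepatitis (MASH).

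RNA of single nuclei was counted in livers of male wild-type C57BL6/J mice. The 3 Chow libraries came from mice on regular chow, and the 2 MASH libraries from mice on a MASH diet (labelled AMYLIN liver NASH diet) whose energy came to 40% from fat and 20% from fructose, with 2% cholesterol added. Both diets began at 10 to 12 weeks of age and ran for 5 months. The labels do not say whether a library held 1 mouse or several, so p-values measure only the spread between libraries. The libraries held 8633 to 12935 barcodes and 35612373 to 49137377 UMIs, and pairs of libraries shared 23 to 48 barcodes (0.254% to 0.399% of the smaller library).

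Kupffer cells line the liver sinusoids and clear bacteria, worn red cells and dying cells from portal blood. Most are seeded before birth and renew themselves in the liver. In steatohepatitis, monocytes from the blood enter the liver and can become macrophages that take on part of the Kupffer cell program, while others become lipid-associated macrophages. The 10 genes cover the scavenger receptors Cd163 and Marco, the receptors for dying cells, complement, glycans and folate (Timd4, Vsig4, Clec4f and Folr2), the secreted protein Cd5l, and the transcriptional regulators Nr1h3, Id3 and Spic.

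Promoters are shown for the genes whose levels fell in MASH macrophage nuclei (Cd163, Timd4 and Marco), for Cd5l, whose MASH level lay within the Chow range, and for Clec4f, the gene most particular to Kupffer cells. Each window runs from 250 bases before to 50 after the RefSeq start, 5′ to 3′ on the gene's strand, in build GRCm38.p6. Capitals mark matches on either strand to GAGGAA (a short form of what PU.1 binds), TGCTGA (MAF), AGGTCA (nuclear receptors) and TGGGAA (RBPJ). The windows are chr6:124304401-124304700 (plus strand) for Cd163, chr11:46810549-46810848 (plus) for Timd4, chr1:120504975-120505274 (minus) for Marco, chr3:87357631-87357930 (plus) for Cd5l and chr6:83656067-83656366 (minus) for Clec4f.
Cd163: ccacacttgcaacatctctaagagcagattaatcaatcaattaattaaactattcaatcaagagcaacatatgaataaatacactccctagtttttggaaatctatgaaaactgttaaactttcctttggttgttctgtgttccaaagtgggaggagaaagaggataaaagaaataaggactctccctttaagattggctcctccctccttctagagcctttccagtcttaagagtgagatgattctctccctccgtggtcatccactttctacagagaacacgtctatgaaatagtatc
Timd4: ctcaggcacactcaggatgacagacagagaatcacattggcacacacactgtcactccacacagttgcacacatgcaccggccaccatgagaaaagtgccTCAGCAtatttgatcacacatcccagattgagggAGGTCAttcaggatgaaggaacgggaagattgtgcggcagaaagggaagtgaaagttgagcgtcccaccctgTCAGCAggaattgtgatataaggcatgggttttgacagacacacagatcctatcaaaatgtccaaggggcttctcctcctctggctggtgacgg
Marco: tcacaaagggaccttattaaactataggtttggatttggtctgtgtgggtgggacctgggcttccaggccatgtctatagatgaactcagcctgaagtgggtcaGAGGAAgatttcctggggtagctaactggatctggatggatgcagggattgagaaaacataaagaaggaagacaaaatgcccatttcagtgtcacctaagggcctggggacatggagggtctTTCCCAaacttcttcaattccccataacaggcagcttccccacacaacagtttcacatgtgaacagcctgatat
Cd5l: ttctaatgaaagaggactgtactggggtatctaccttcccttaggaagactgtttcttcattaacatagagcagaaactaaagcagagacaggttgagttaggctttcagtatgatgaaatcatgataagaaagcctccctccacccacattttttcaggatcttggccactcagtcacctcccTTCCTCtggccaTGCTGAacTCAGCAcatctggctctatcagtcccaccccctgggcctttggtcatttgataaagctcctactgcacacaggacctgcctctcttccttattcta
Clec4f: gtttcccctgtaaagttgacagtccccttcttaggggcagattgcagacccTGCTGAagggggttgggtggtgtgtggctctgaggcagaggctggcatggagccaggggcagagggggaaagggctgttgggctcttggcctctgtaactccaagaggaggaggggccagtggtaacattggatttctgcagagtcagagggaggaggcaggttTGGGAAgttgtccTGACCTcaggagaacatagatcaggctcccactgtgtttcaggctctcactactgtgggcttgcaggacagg

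RefSeq windows were found for all 10 genes, 12 in number since Nr1h3 and Folr2 have 2 starts each. The Cd163 window held none of the 4 marked motifs and 2 matches to CANNTG, the E-box. The Timd4 window held 2 matches to TGCTGA and 1 to AGGTCA, and the Cd5l window held 2 to TGCTGA and 1 to GAGGAA. Over the 10 genes, TGCTGA was present for 6, GAGGAA for 5, TGGGAA for 3, AGGTCA for 2 and CANNTG for 7. Of all 32851 promoter windows of that length, 19.5% held TGCTGA, 28.3% GAGGAA, 25.6% TGGGAA, 16.3% AGGTCA and 72.3% CANNTG. Genes that fell and genes that stayed shared motifs, since Marco and Cd5l both held GAGGAA and Timd4 and Cd5l both held TGCTGA.

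In GENCODE M21 (GRCm38), all 10 are protein-coding genes. Cd163 (ENSMUSG00000008845) spans chr6:124304656-124330527, Timd4 (ENSMUSG00000055546) chr11:46810800-46844332, Marco (ENSMUSG00000026390) chr1:120474538-120505024, Clec4f (ENSMUSG00000014542) chr6:83644542-83656187 and Cd5l (ENSMUSG00000015854) chr3:87357881-87371073. No other annotated gene overlaps these 5, nor Vsig4, Id3 or Spic. Nr1h3 overlaps 1 annotated gene on its own strand (Gm13783) and 1 on the opposite strand, and Folr2 overlaps 2, both on the opposite strand. Whether reads of Nr1h3 and Gm13783 were mixed was not tested.

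Macrophage nuclei numbered 163, 110 and 210 in Chow libraries 1, 2 and 3, and 1385 and 1015 in MASH libraries 1 and 2. They were 1.91%, 0.852% and 1.91% of nuclei in Chow and 10.8% and 8.86% in MASH (exact two-sided permutation test over 3 against 2 libraries, p = 0.1, the smallest this design allows). All 8 general macrophage markers (Csf1r, Adgre1, Cd68, C1qa, C1qb, C1qc, Fcgr1 and Mpeg1) were found in every library, at a summed level of 1419 to 3310 CPM (UMIs scaled to a common library sum) in Chow and 1725 to 2005 in MASH. A UMI of any of the 8 was found in 60.1% to 81.4% of macrophage nuclei in Chow and 80.3% to 83.8% in MASH. Of the 8, 0 were called different between the diets by edgeR or DESeq2, and 0 had an unadjusted p under 0.05. By edgeR, 0.99% of all genes tested were called lower and 0.563% higher.

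The gate also let in other RNA. Its part in the results below was not tested beyond refits (edgeR) that left some of it out. Cd163, Marco and Timd4 stayed called without nuclei holding markers of other blood cells (adjusted p = 0.00174, 0.0217 and 0.00904). The same held without doublet calls (0.00256, 0.00409 and 0.00695) and without the 200 highest hepatocyte genes (0.00589, 0.00847 and 0.00987). Clec4f was called only in the last of these (0.0433). The summed level of 6 hepatocyte markers was 10435 to 23180 CPM in Chow and 4859 to 8990 in MASH macrophage nuclei. T and NK cell markers were found in 10.9% to 16.0% of the nuclei in Chow and 8.01% to 11.2% in MASH, and dendritic cell markers in 16.2% to 20.2% and 13.6% to 18.7%. Neutrophil markers were found in 16.4% to 21.5% and 12.2% to 16.5%. Nuclei with no marker of other blood cells (S100a8 and S100a9 not counted) were 78 of 163, 65 of 110 and 123 of 210 in Chow. In MASH they were 926 of 1385 and 589 of 1015. The neutrophil list stood at 4502 CPM in Chow library 1, with 417 UMIs of S100a8 and 586 of S100a9, against at most 43 UMIs of either gene in any other library. The mitochondrial share of UMIs in macrophage nuclei was 12.4% in MASH library 1 and 3.53% to 8.19% in the rest. Median depth was alike, at 1037 to 1286 UMIs per macrophage nucleus.

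Cd163, Marco and Timd4 were far lower in the macrophage nuclei of MASH livers than of Chow livers, while Cd5l and Nr1h3 lay within their Chow ranges and Clec4f lay between. Of the 10 genes, 3 were called lower and 0 higher at an adjusted p under 0.05 (edgeR quasi-likelihood test over 6567 genes, Benjamini-Hochberg adjustment), where 0.99% of all genes tested were called lower and 0.563% higher. The median log2 fold change was -1.41 over the 10 genes and -0.03 over all genes tested. All 10 passed the filter on low counts, but Cd163, Marco and Timd4 did so through the Chow libraries alone, so their number among the calls is no support for a direction. With no such filter 5 were called lower, where 1.48% of 17662 genes were, but that fit kept every gene with any UMI. Clec4f and Vsig4 were the genes added. Clec4f had a smaller log2 fold change there (-1.72, SE 0.46, against -1.81, SE 0.43). Its unadjusted p was nevertheless smaller (0.000198 against 0.00142, edgeR). Vsig4 went from -1.44 to -1.35, so the added calls do not rest on larger differences. In 5 of the 10, each MASH library was below each of the 3 Chow libraries (Cd163, Marco, Timd4, Clec4f and Folr2), which held for 13.1% of all genes tested.

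Cd163 encodes the receptor that takes up haemoglobin bound to haptoglobin. Its TMM-scaled level was 416, 414 and 909 CPM in the Chow libraries and 7.79 and 1.24 CPM in the MASH libraries. Every MASH value was far below every Chow value, and in raw counts 432 UMIs in 483 Chow nuclei stood against 17 UMIs in 2400 MASH nuclei. The log2 fold change was -6.92 (SE 0.75, adjusted p = 0.00432, edgeR), or 121-fold lower in the fit. The ratio of Cd163's share of all UMIs, MASH over Chow, was 0.00766 (95% exact interval 0.00442 to 0.0124, counting error only). Among all alternatives tried in macrophage nuclei, the log2 fold change ran from -8.63 to -5.81 and Cd163 was called in each. It was -8.63 without MASH library 1 and -6.16 without MASH library 2.

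Marco, a class A scavenger receptor that binds bacteria and modified lipoproteins, stood at 24.3, 90.6 and 120.1 CPM in Chow and 2.08 and 0.619 CPM in MASH (TMM-scaled). The groups did not overlap. The log2 fold change was -5.66 (SE 0.76, adjusted p = 0.00710, edgeR), with 55 UMIs in Chow and 5 in MASH. Timd4, a receptor for phosphatidylserine on dying cells that marks Kupffer cells seeded before birth, stood at 44.5, 77.6 and 182 CPM in Chow and 7.27 and 2.48 CPM in MASH. Its groups did not overlap either, and its log2 fold change was -4.34 (SE 0.65, adjusted p = 0.00912, edgeR), with 76 UMIs in Chow and 18 in MASH. Without Chow library 2 Timd4 missed the threshold (log2 fold change -4.49, adjusted p = 0.0501). Without Chow library 3 the log2 fold change was -5.06 for Marco and -3.47 for Timd4, and without MASH library 1 it was -6.55 and -5.26.

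**Figure D1:**
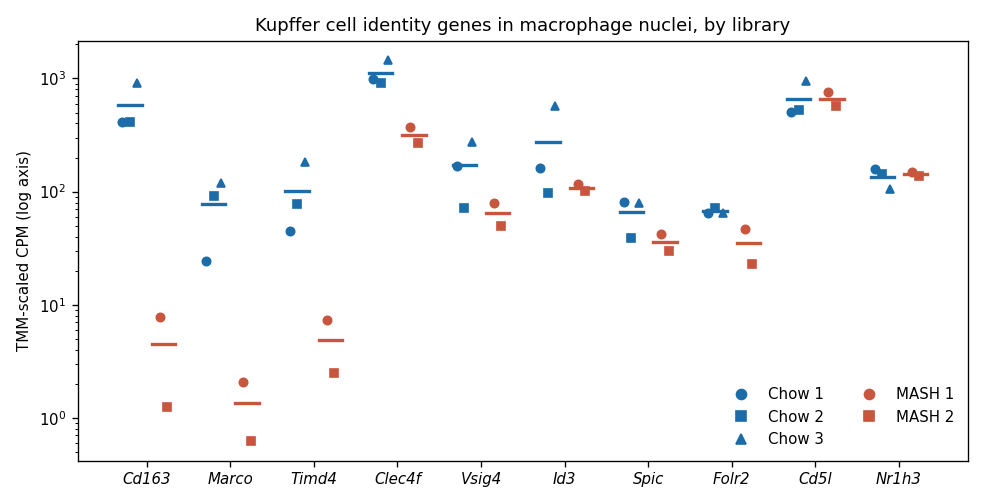
TMM-scaled CPM (log axis) of the 10 genes in macrophage nuclei, 1 point per library and a line at each group mean, ordered by log2 fold change. Cd163, Marco and Timd4 sit at 0.619 to 7.79 CPM in MASH against 24.3 to 909 CPM in Chow, while the groups of Cd5l and Nr1h3 overlap.

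The call for Marco depended on which nuclei were left out. MASH library 1 held 67 Marco UMIs over all its nuclei, and only 4 of them lay in the gate. They came from 35 nuclei, of which the highest held 12 UMIs and the next 9. A wider gate, added after the values were seen, kept nuclei with UMIs of the other lineages' genes but required 3 of the 6 macrophage genes. In MASH library 1 it kept 739 of the 1385 nuclei of the first gate. Nuclei outside the first gate were 103 of 177, 64 of 116 and 111 of 239 in Chow. In MASH they were 490 of 1229 and 505 of 1185. The part of this difference in the levels of the wider gate was not tested. Marco stood there at 6.40, 50.1 and 36.8 CPM in Chow and 9.23 and 0.224 CPM in MASH, unscaled. MASH library 1 then lay above Chow library 1, and the gene was not called (log2 fold change -2.79, SE 1.09, adjusted p = 0.177). With 3 of the 6 genes required and nuclei with the other lineages' genes still left out, Marco was called (log2 fold change -5.83, adjusted p = 0.00476, edgeR). Cd163 (log2 fold change -5.81, adjusted p = 0.00607) and Timd4 (-3.36, adjusted p = 0.0361) were called in the wider gate as well. Cd163 levels there were 134, 152 and 258 CPM in Chow and 5.80 and 1.34 CPM in MASH, with no overlap.

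**Figure D2:**
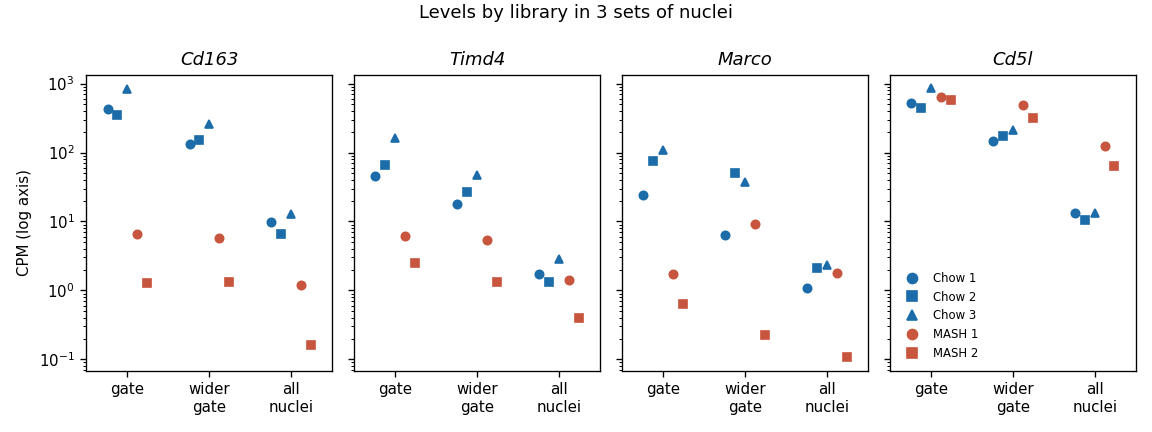
Unscaled CPM (log axis) of 4 genes per library in the macrophage gate, in the wider gate and in all nuclei. Cd163 is lower in both MASH libraries in all 3 sets, Marco overlaps between the diets in the wider gate and in all nuclei, and Cd5l is higher in both MASH libraries in all nuclei.

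Of the other surface receptors, none passed the test in macrophage nuclei, and their log2 fold changes were nearer to 0. Clec4f, a C-type lectin found on Kupffer cells, stood at 990.2, 906 and 1465 CPM in Chow and 371 and 267 CPM in MASH (TMM-scaled), so the groups did not overlap. Its log2 fold change was -1.81 (SE 0.43, adjusted p = 0.0739, edgeR). It passed with DESeq2 (adjusted p = 0.000998), without TMM scaling (0.0295), with no filter on low counts (0.0118) and without the 200 highest hepatocyte genes (0.0433), and stayed negative in the wider gate at -0.97 (adjusted p = 0.171). In raw counts 812 UMIs in Chow stood against 1146 in MASH, a ratio of shares of all UMIs of 0.275 (95% exact interval 0.251 to 0.301, counting error only).

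Vsig4, a receptor for complement C3 fragments, stood at 169.8, 71.2 and 275 CPM in Chow and 80.0 and 50.2 CPM in MASH (TMM-scaled). MASH library 1 lay above Chow library 2, and the log2 fold change of -1.44 (SE 0.48, adjusted p = 0.207, edgeR) did not pass, though it did with no filter on low counts (adjusted p = 0.0407). Folr2, the folate receptor beta, was even across the Chow libraries at 64.7, 71.2 and 65.2 CPM and stood at 46.8 and 22.9 CPM in MASH. Its groups did not overlap, but its log2 fold change of -0.92 (SE 0.40, adjusted p = 0.357, edgeR) did not pass. In the wider gate the groups of Vsig4 and Folr2 overlapped, at log2 fold changes of -0.52 and -0.35.

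Cd5l, a secreted protein that keeps macrophages alive and is a target of the nuclear receptor encoded by Nr1h3, showed no call and overlapping groups in macrophage nuclei. It stood at 509, 524 and 947 CPM in Chow and 755 and 572 CPM in MASH (TMM-scaled), and the MASH values lay inside the Chow range. The log2 fold change was 0.00 (SE 0.42, adjusted p = 0.998, edgeR), and the ratio of its shares of all UMIs was 0.957 (95% exact interval 0.868 to 1.06, counting error only). In the wider gate Cd5l was higher in both MASH libraries, at 495 and 318 CPM against 149, 175 and 216 CPM in Chow (unscaled), and missed the threshold (log2 fold change 1.02, adjusted p = 0.138). From the first gate to the wider one, its mean unscaled level went from 603 to 180 CPM in Chow and from 610 to 406 CPM in MASH. The part of RNA of other lineages in this was not tested.

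Among the regulators, Nr1h3, which encodes the oxysterol receptor LXRα, was the most even. It stood at 158, 142 and 106 CPM in Chow and 150.1 and 139 CPM in MASH (TMM-scaled), and its log2 fold change was 0.10 (SE 0.33, adjusted p = 0.944, edgeR). Id3, a helix-loop-helix protein that blocks the DNA binding of its partners, stood at 162, 97.1 and 569.6 CPM in Chow and 116 and 100.3 CPM in MASH. Chow library 3 stood far above the rest, the groups overlapped, and the log2 fold change of -1.38 (SE 0.60, adjusted p = 0.357, edgeR) moved to -0.26 without that library. Spic, an ETS factor of macrophages that recycle haem iron, stood at 80.8, 38.8 and 78.9 CPM in Chow and 42.1 and 29.7 CPM in MASH. Its groups overlapped, and its log2 fold change was -0.93 (SE 0.39, adjusted p = 0.338, edgeR).

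Ratios of summed UMIs inside a library need no scaling between libraries. The log2 ratio of Cd163 to Clec4f was -1.25, -1.12 and -0.69 in the Chow libraries and -5.53 and -7.43 in the MASH libraries, a difference of -5.46. The corresponding differences were -3.71 for Marco and -2.47 for Timd4. These 3 genes were therefore lower in MASH relative to Clec4f as well, each with no overlap (exact permutation test, p = 0.1 each). The log2 ratio of Cd5l to Clec4f was -0.96, -0.79 and -0.63 in the Chow libraries and 1.02 and 1.10 in the MASH libraries, a difference of 1.85, and that of Nr1h3 differed by 1.89 (exact permutation test, p = 0.1 each, no overlap). Spic, Folr2 and Vsig4 also lay above Chow relative to Clec4f in both MASH libraries, by 0.92, 0.73 and 0.54 (exact permutation test, p = 0.2, 0.2 and 0.4), and Id3 overlapped. Clec4f itself was lower in MASH macrophage nuclei (log2 fold change -1.81, edgeR, not called), so a gene at an even level rises in this ratio. The log2 fold changes of Spic, Folr2 and Vsig4 in that fit were themselves negative, at -0.93, -0.92 and -1.44. The share of all genes without overlap in this ratio was not computed.

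Shares of nuclei were compared with each nucleus thinned to 500 UMIs, which left out no macrophage nucleus. A Cd163 UMI was found in 15.5%, 17.8% and 26.3% of macrophage nuclei in Chow and in 0.367% and 0.0244% in MASH (36.0% ± 10.5 against 0.446% ± 0.492 unthinned, SD, n = 3 and 2). The thinned share in hepatocyte nuclei, which should lack the gene, was 0.0952% in Chow and 0.00383% in MASH (0.563% and 0.0257% unthinned, at a median depth of 3504 to 4683 UMIs per nucleus). The Cd163 share of MASH library 2 lay below that of Chow hepatocyte nuclei and that of MASH library 1 above it. Against hepatocyte nuclei of the same library, both MASH shares were higher. Those nuclei stood at 0.00766% in MASH library 1 and held 0 Cd163 UMIs in MASH library 2. The macrophage share of MASH library 2 rested on 2 UMIs in 1 nucleus. Timd4 was found in 4.85% ± 2.32 of Chow and 0.244% ± 0.0800 of MASH macrophage nuclei (hepatocyte nuclei 0.0356% and 0.0217%), and Marco in 3.76% ± 2.11 and 0.0534% ± 0.0513 (hepatocyte nuclei 0.0305% and 0.0348%). For Marco the mean MASH share was close to that background.

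Clec4f was found in 28.8%, 31.4% and 37.1% of thinned macrophage nuclei in Chow and in 13.3% and 9.63% in MASH, with 0.330% and 0.582% in hepatocyte nuclei. Cd5l was found in 23.2% ± 4.16 in Chow and 22.3% ± 2.49 in MASH (SD, n = 3 and 2). Macrophage nuclei were more frequent in MASH, and so were those with a Clec4f UMI among all nuclei, at 27.2 and 14.8 per 1000 nuclei against 7.60, 4.42 and 11.1 in Chow (unthinned).

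Nuclei that held Clec4f in MASH seldom held Cd163, Timd4 or Marco and often held Cd5l. Among thinned macrophage nuclei with a Clec4f UMI, 37.8%, 31.4% and 41.4% also held a Cd163 UMI in Chow, and 1.46% and 0.0335% in MASH. For Timd4 the shares were 10.3%, 5.52% and 11.5% in Chow against 0.916% and 0.879% in MASH, and for Marco 3.48%, 8.55% and 6.57% in Chow against 0.0859% in MASH library 1, while MASH library 2 held 0 in 169 nuclei, which allows a share of nuclei with a Marco UMI of up to 1.78% (counting error only) and sets no limit on nuclei that express the gene. In none of these did the groups overlap (exact permutation test, p = 0.1 for Cd163, 0.2 for Timd4 and 0.2 for Marco). The counts were low: 349 and 169 such nuclei in MASH libraries 1 and 2, which held 14 Cd163 UMIs together, and 65, 57 and 122 in Chow, which held 389.

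Cd5l was found with Clec4f in 45.1%, 38.7% and 43.0% of these nuclei in Chow and in 46.6% and 52.3% in MASH. The shares of Vsig4 (12.4% ± 5.72 and 10.1% ± 0.201), Nr1h3 (10.2% ± 3.68 and 10.3% ± 2.03), Spic (4.04% ± 1.26 and 3.87% ± 0.597), Folr2 (5.58% ± 1.50 and 4.73% ± 0.383) and Id3 (14.3% ± 8.29 and 7.23% ± 1.95) overlapped between the diets (SD, n = 3 and 2). Of the lipid-associated macrophage genes, only Gpnmb and Trem2 were looked for in the same nuclei. Gpnmb was found in 8.47% and 17.1% of Clec4f nuclei in MASH and at most 0.0904% in Chow, and Trem2 in 5.38% and 7.64% against 0.653%, 2.18% and 3.03%. Macrophage nuclei without a Clec4f UMI were not compared. All 2400 MASH macrophage nuclei held 1368 Gpnmb and 499 Trem2 UMIs. Doublet calls made up 144 of the 1385 macrophage nuclei of MASH library 1 and 75 of the 1015 of MASH library 2. In Chow libraries 1, 2 and 3 they made up fewer, at 4 of 163, 2 of 110 and 4 of 210. The part of doublets and of RNA from other nuclei in these shares was not tested.

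**Figure D3:**
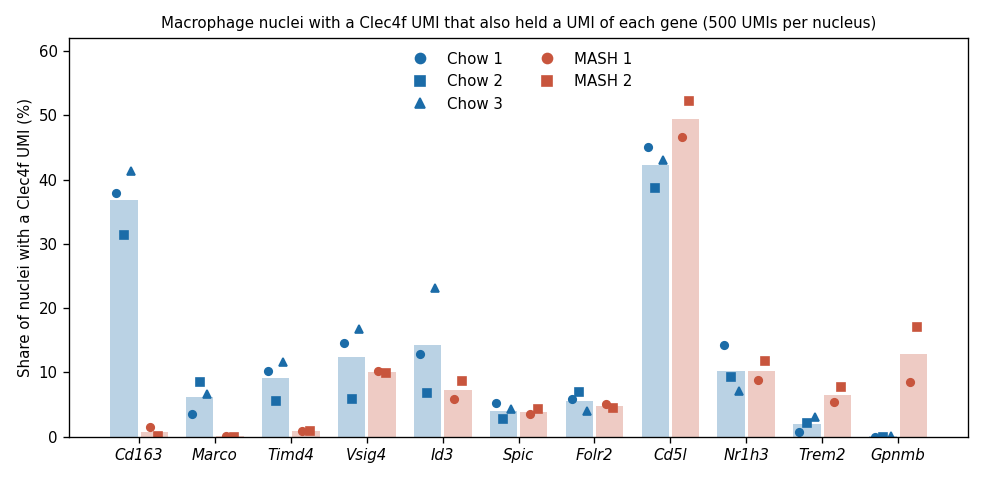
Share (%) of macrophage nuclei with a Clec4f UMI that also held a UMI of each gene, with every nucleus thinned to 500 UMIs; points are libraries and bars are group means. Cd163 is at 31.4% to 41.4% in Chow and at most 1.46% in MASH, Cd5l is at 38.7% to 52.3% in all libraries, and Gpnmb reaches 17.1% in MASH.

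Restricted to the nuclei with a Clec4f UMI, a choice also made after the values were seen, Cd163 (log2 fold change -5.85, adjusted p = 0.00148), Marco (-5.43, adjusted p = 0.0147) and Timd4 (-3.47, adjusted p = 0.0327) were called lower (edgeR). The 6 others apart from Clec4f were not called, with log2 fold changes from -1.03 for Id3 to 0.44 for Cd5l.

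Over all nuclei, the number of macrophages and their RNA per nucleus cannot be told apart in such sums. Of the 10 genes, 1 was called lower (Cd163) and 1 higher (Cd5l), where 5.44% of the 16562 genes tested were called lower and 10.5% higher (edgeR). Cd163 stood at 9.16, 7.23 and 17.1 CPM in Chow and 1.13 and 0.127 CPM in MASH (TMM-scaled), and its log2 fold change was -4.16 (SE 0.89, adjusted p = 0.0256). It was lower over all nuclei while macrophage nuclei were more frequent. Without MASH library 2 it missed the threshold (log2 fold change -3.19, adjusted p = 0.0581), and without MASH library 1 it was -6.35.

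Cd5l stood at 12.2, 11.5 and 17.9 CPM in Chow and 115 and 50.1 CPM in MASH over all nuclei, and its log2 fold change was 2.58 (SE 0.38, adjusted p = 0.0114, edgeR), or 1.92 without MASH library 1. The remaining 8 were not called. Of these, Spic (1.50), Folr2 (1.13), Vsig4 (1.09) and Clec4f (0.61) had positive and Id3 (-1.74), Timd4 (-1.47), Marco (-1.29) and Nr1h3 (-0.27) negative log2 fold changes. Without MASH library 1 those of Marco and Timd4 were -4.57 and -2.76, and without MASH library 2 they were -0.27 and -0.67, with no call in either case. Clec4f, Vsig4, Spic, Folr2 and Nr1h3 had opposite signs in macrophage nuclei and in all nuclei, with no call in either. With DESeq2, Id3 (adjusted p = 0.0188) and Spic (0.0292) were called over all nuclei.

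**Figure D4:**
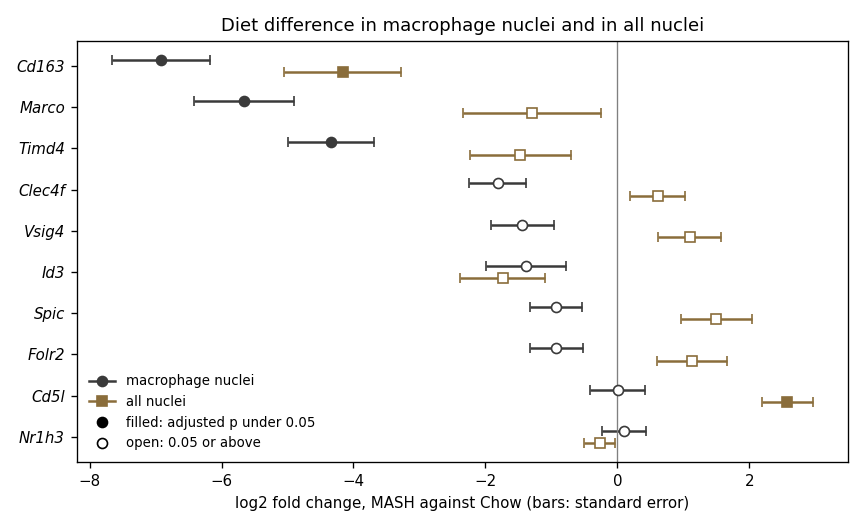
Log2 fold change, MASH against Chow, of each gene in macrophage nuclei (circles) and in all nuclei (squares), with standard errors as bars and filled symbols for adjusted p under 0.05. Cd163 is filled in both, Marco and Timd4 in macrophage nuclei, and Cd5l, at 0.00 in macrophage nuclei, is at 2.58 over all nuclei.

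The genes differed in how much of their RNA lay in macrophage nuclei. The gate held 20.6% to 40.6% of all Clec4f UMIs of a library, and similar parts of Cd163 (21.8% to 42.4%), while Nr1h3 and Id3 had 0.390% to 9.58% of their UMIs there. Unscaled levels of Clec4f were 758 to 1325 CPM in Chow macrophage nuclei, against 5.09 to 6.13 CPM in hepatocyte, 21.7 to 30.4 CPM in endothelial and 6.90 to 34.0 CPM in stellate nuclei. Nr1h3 was found at 55.0 to 89.4 CPM in Chow hepatocyte nuclei and 96.2 to 159 CPM in Chow macrophage nuclei. Id3 was at its highest in Chow library 3 in each of the 5 lineages, for example 341 CPM in hepatocyte nuclei against 89.4 and 179 in the other Chow libraries, so its Chow level differed by library in every lineage.

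**Figure D5:**
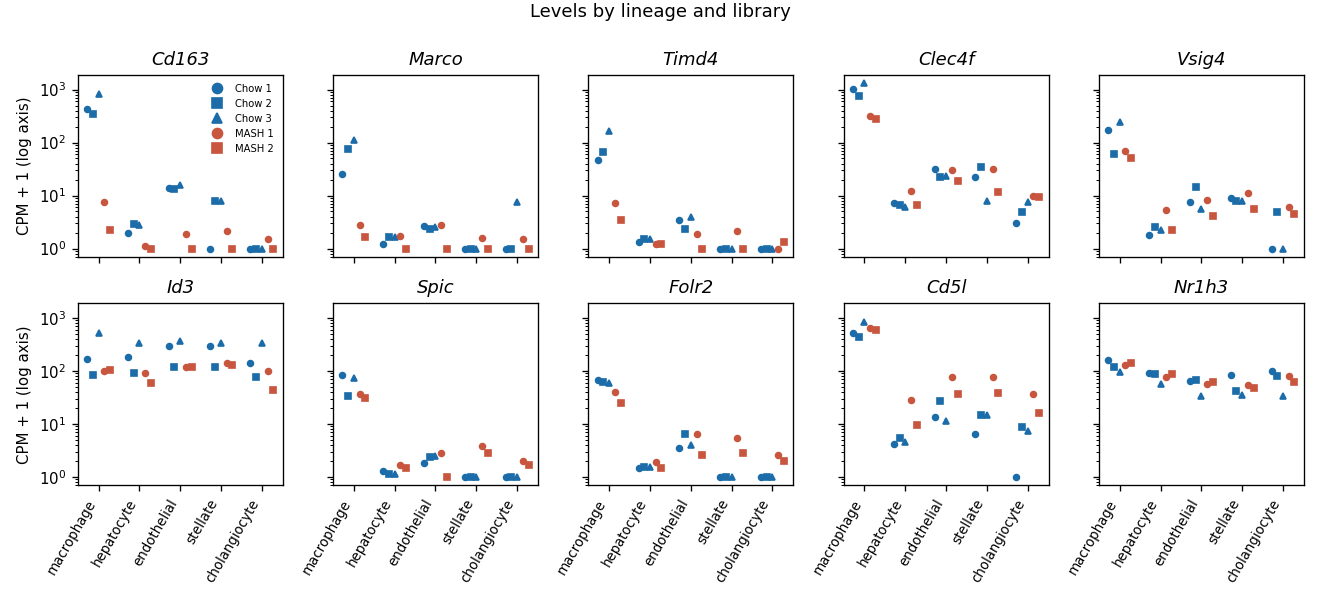
Unscaled CPM plus 1 (log axis) of each gene by lineage, 1 point per library. Clec4f is at 758 to 1325 CPM in Chow macrophage nuclei and at most 34.0 CPM in the other Chow lineages, Nr1h3 and Id3 are found in every lineage, and Cd5l is higher in MASH than in Chow in hepatocyte, endothelial and stellate nuclei.

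The diet difference of each gene in macrophage nuclei was tested against that in other lineages of the same libraries (edgeR, lineage by diet, library as block). Against hepatocyte nuclei, 4 of the 10 were called, where 4.4% of 14327 genes were. The macrophage log2 fold change was below the hepatocyte value by 1.92 for Clec4f, 1.65 for Cd5l, 2.09 for Vsig4 and 4.87 for Marco. Against endothelial nuclei, 2 were called (Clec4f and Cd5l, 1.17% of 11264 genes) and against stellate nuclei 1 (Cd5l, 0.778% of 7972 genes). Cd163 was not called against any lineage, with only 1, 1 and 2 UMIs in MASH hepatocyte, endothelial and stellate nuclei, and 132, 35 and 3 in Chow.

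The levels behind these differences in other lineages were low. Cd5l in hepatocyte nuclei was 3.70 ± 0.614 CPM in Chow and 18.0 ± 13.4 in MASH, in endothelial nuclei 16.2 ± 8.33 and 56.6 ± 29.1, and in stellate nuclei 10.9 ± 4.78 and 56.9 ± 28.4 (unscaled, SD, n = 3 and 2). It was higher in both MASH libraries than in all Chow libraries in each of the 3. In the same libraries macrophage nuclei went from 1.56% ± 0.610 to 9.83% ± 1.37 of nuclei. The part of RNA set free from macrophages in these values was not tested.

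Other genes linked to Kupffer cells were read from lists. Over all genes tested in macrophage nuclei, 0.99% were called lower and 0.563% higher (edgeR). Of 10 further Kupffer cell genes, 9 were tested and 3 were called lower: Fcna, a ficolin (-3.95, SE 0.64, adjusted p = 0.0131), Slc16a9, a transporter (-2.28, SE 0.49, adjusted p = 0.0457), and C6, a complement component (-1.86, SE 0.41, adjusted p = 0.0492). Fcna and Slc16a9 passed the filter on low counts through the Chow libraries alone, so the count of 3 is no support for a direction. Fcna stood at 105, 175 and 353 CPM in Chow and 21.3 and 5.57 CPM in MASH (TMM-scaled). The median log2 fold change of the 9 was -1.67, against -0.03 over all genes tested. Of 13 other transcription factors of macrophage identity, 12 were tested and 0 were called, with a median of -0.13 (3 had an unadjusted p under 0.05 in edgeR, and 1 was called by DESeq2). Zeb2, which keeps macrophage identity and was the 1 called by DESeq2, had the lowest adjusted p among them, chosen after its values were seen, with a log2 change of 1.16 (SE 0.39, adjusted p = 0.216).

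Of 10 target genes of LXR, 1 was called higher, Srebf1, the regulator of fatty acid synthesis, at 32.3, 77.6 and 27.5 CPM in Chow and 247 and 165 CPM in MASH (log2 fold change 2.28, SE 0.44, adjusted p = 0.0334), and the median was 0.42. For this list and the next 2, the share called higher over all genes tested was 0.563%, and 0.99% were called lower. Of 8 genes of haem and iron recycling, 0 were called by edgeR, 4 had an unadjusted p under 0.05, and the median was -0.69. DESeq2 called 1 of them, Hmox1, which degrades haem. The MASH libraries lay below the Chow libraries for 4, which held for 13.1% of all genes tested. Of 5 scavenger and clearance receptors, Cd36, a receptor for fatty acids and oxidised lipoproteins, was called higher (1.98, SE 0.38, adjusted p = 0.0310). Scavenger receptors thus differed among themselves, with Cd163 and Marco lower and Cd36 higher.

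Of 10 lipid-associated macrophage genes, all 10 were tested, 7 were called higher and 0 lower, with a median log2 fold change of 2.26. Over all genes tested, 0.563% were called higher and 0.99% lower. Spp1 (osteopontin) stood at 44.5, 12.9 and 13.7 CPM in Chow and 372 and 584 CPM in MASH (log2 fold change 4.28, SE 0.50, adjusted p = 0.00451). Gpnmb, a lysosomal glycoprotein, changed by 4.94 (SE 0.70, adjusted p = 0.00774) and Trem2, a lipid receptor, by 2.26 (SE 0.40, adjusted p = 0.0207). Of the 7, 5 (Gpnmb, Itgax, Mmp12, Spp1 and Trem2) passed the filter on low counts in both MASH libraries and in at most 1 Chow library, so their number is no support for a direction either. Haemoglobin genes, which mark red cells, were also called higher for 3 of 3 tested (Hbb-bs 2.68, Hba-a2 2.80, Hba-a1 2.19), with a summed level of 163 to 168 CPM in Chow and 829 to 1153 CPM in MASH macrophage nuclei. Hba-a2 passed the filter in both MASH libraries and in only 1 Chow library, so its call adds no support for a direction. The fourth gene of that list, Hbb-bt, was not tested.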

How the data were processed

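Sorted nuclei of snap-frozen mouse livers were profiled in 5 libraries with 10x 3′ chemistry. The authors aligned reads and made UMI counts per gene and nucleus with Cell Ranger 8.0.1 (GRCm38, intronic reads left out), and the deposited matrices hold these counts, unnormalized. Here, counts were summed per library over the gated nuclei and tested with edgeR 4.0.16 (TMM, filterByExpr, quasi-likelihood, Benjamini-Hochberg threshold 0.05) over all genes, on 3 Chow and 2 MASH libraries. Standard errors are the log2 fold change divided by the root of F. Other lineages were nuclei holding their own gene of Hnf4a, Ptprb, Pkhd1 and Col3a1, none of the rest and UMIs of fewer than 2 of the 6 macrophage genes. Ratios to Clec4f had 0.5 UMI added. Doublets were left in, and left out as an alternative (Scrublet, 0.8% expected per 1000 nuclei). The named genes were the 10, up to 3 called genes per list and direction with the smallest adjusted p, and the 5 genes most like Clec4f. The 10 genes and the lists were chosen with earlier results of these data known. On simulated data (8-fold changes in 200 of 6577 genes, macrophage comparison), 99% were recovered. The changed genes were drawn from the better expressed ones and all genes had the same dispersion. That share therefore does not apply to smaller changes or to low genes. Depth limits low genes: intervals cover counting error only. Alternatives were DESeq2 1.42.0, other filters, scaling, gates and depths, each library left out and a replicate block.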

Additional observations from a re-analysis of the deposited data

Results flagged for a closer look

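In 7 of 30 tests, the diet difference of a Kupffer cell gene in macrophage nuclei differed from that in another lineage of the same libraries, each time with the macrophage log2 fold change lower (edgeR, adjusted p under 0.05). Over all genes, 4.4% were called against hepatocyte, 1.17% against endothelial and 0.778% against stellate nuclei. Against hepatocyte nuclei the difference was -1.92 for Clec4f (SE 0.38), -1.65 for Cd5l (SE 0.40), -2.09 for Vsig4 (SE 0.48) and -4.87 for Marco (SE 1.26), the last with 6 Marco UMIs in MASH hepatocyte nuclei. Against endothelial nuclei it was -1.69 for Clec4f (SE 0.34) and -1.72 for Cd5l (SE 0.40). Against stellate nuclei it was -2.34 for Cd5l (SE 0.51). The part of RNA set free from macrophages in the other lineages was not tested.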

How the results depend on the processing

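Calls over all genes in macrophage nuclei numbered 102, and 164 with DESeq2, 464 with no filter on low counts, 201 with no TMM factor, 59 without nuclei holding markers of other blood cells, 30 in nuclei with a Clec4f UMI, 562 in the wider gate and 20 to 109 with 1 library left out (20 without Chow library 2, which ended the call of Timd4). Over all nuclei there were 2632 calls, 4531 with DESeq2 and 409 to 3556 with 1 library left out (1396 without Chow library 2, 672 without MASH library 1 and 409 without MASH library 2). With the replicate number as a block there were 189 calls in macrophage nuclei and 1804 over all nuclei, and the block changed no call of the 10 genes. Deviations from the group means correlated at -0.21 and -0.25 between libraries of the same number. With 2 MASH libraries these deviations mirror each other, so the values cannot show whether the numbers pair the libraries.

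Some values turned sign. In macrophage nuclei, Nr1h3 was -0.054 with the block, -0.14 with 2 of 4 macrophage genes and -0.030 to 0.23 with 1 library left out. Cd5l was -0.0057 with DESeq2, -0.0085 with 3 of 6 genes, -0.033 with 2 of 4, -0.26 without markers of other blood cells and -0.20 to 0.39 with 1 library left out. Clec4f over all nuclei ran from -0.070 to 1.21. Over all nuclei the log2 ratio to Clec4f turned for Nr1h3 (-0.79) and Id3 (-1.98). With 1 library left out, the thinned share of macrophage nuclei (MASH minus Chow, percentage points) ran from -2.66 to 1.48 for Cd5l and -0.13 to 1.55 for Nr1h3, and the share among nuclei with a Clec4f UMI from -1.48 to 2.10 for Nr1h3 and -0.85 to 0.40 for Spic. For 3 to 5 genes that share did not overlap between the diets and was lower in MASH (5 without Chow library 2, 3 with all libraries). Nr1h3 in macrophage against endothelial nuclei was 0.024 with no filter on low counts. The cause of these changes was not tested. With 2 MASH libraries no permutation test could go below p = 0.1, and 5 Marco, 17 Cd163 and 18 Timd4 UMIs set their MASH levels, so the size of these fold changes is uncertain.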

Other observations

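Fewer macrophage nuclei held several of the 10 genes in MASH. Single genes were also found in fewer MASH nuclei (unthinned means of 49.9% and 20.9% for Clec4f and 36.0% and 0.446% for Cd163). A lower share with several genes follows from that and does not show how the genes go together. Of macrophage nuclei, 32.5%, 38.2% and 56.2% held UMIs of 3 or more of the 10 in the Chow libraries, and 16.7% in MASH library 1 and fewer in MASH library 2 (unthinned). None of the 10 was found in 42.9%, 29.1% and 25.2% in Chow and in 39.1% and 47.9% in MASH, which overlapped.

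The genes whose levels followed Clec4f most closely over the 25 sums of 5 lineages and 5 libraries, of 9762 genes ranked, were Pira2 (Pearson r = 0.965), Nfam1 (0.958), Pirb (0.957), Siglece (0.955) and Pou2f2 (0.955). The sums share libraries and depth, and most of the range lies between macrophage nuclei and other lineages. Pira2, a paired immunoglobulin-like receptor with near-identical copies, stood at 106, 119 and 155 CPM in Chow and 31.6 and 24.6 CPM in MASH macrophage nuclei (unscaled). How reads of these copies were assigned was not tested. Siglece, an inhibitory sialic acid receptor, stood at 73.6, 54.2 and 223 CPM in Chow and 25.5 and 23.4 CPM in MASH. Pirb stood at 206 to 717 CPM in Chow and 163 to 186 in MASH, Pou2f2 at 450 to 866 and 383 to 423, and Nfam1 at 130.0 to 177 and 118 to 141, the last with overlap. The ranking used these macrophage sums, so a lower MASH level is partly set by the choice of genes.

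Of 5 monocyte genes tested in macrophage nuclei, 0 were called by edgeR or DESeq2 and 1 had an unadjusted p under 0.05 (edgeR), with a median log2 fold change of -0.64. By edgeR, 0.99% of all genes tested were called lower and 0.563% higher. Ccr2, the receptor by which monocytes leave the marrow, stood at 400.1, 188 and 391 CPM in Chow and 348 and 313 CPM in MASH (TMM-scaled), and its log2 fold change was 0.00 (SE 0.39, adjusted p = 0.998), and was chosen after its values were seen.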
